A study of Homo sapiens with 8 samples.

Results

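TXNIP and the ARRDC genes encode the alpha-arrestins, a family of adaptor proteins. The genes described here are TXNIP, ARRDC1, ARRDC2, ARRDC3 and ARRDC4, which are 5 of the 19775 genes that had a probe set with a single gene symbol. All 8 probe sets annotated to them in the platform's gene table were taken, 3 for TXNIP, 2 for ARRDC1 and 1 for each of the others. The family was selected on earlier results of these same arrays. The members' own differences are therefore given as descriptions, with standard errors and no p-value, and nothing is supported by them.

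Zalypsis is a DNA-binding compound of marine origin, tested here on cell lines of multiple myeloma, a cancer of plasma cells. The human lines MM1S and OPM1 were each measured on 2 arrays of untreated control cells and 2 arrays of cells given Zalypsis at 5 nM in culture, harvested when 15 to 20% of them had begun to die, so that the 8 arrays form 4 groups of 2. How long the cells were treated, and whether paired arrays came from separate cultures, is not given in the sources used here, so each spread below is one between arrays and may be technical. Each line is a single established cell line, and no array is from a patient.

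Alpha-arrestins share the arrestin fold with the arrestins that switch off G protein-coupled receptors. Most of them carry short proline and tyrosine motifs that bind ubiquitin ligases of the NEDD4 family, and they bring these ligases to receptors and transporters that are then taken into the cell. TXNIP in addition binds and inhibits thioredoxin and promotes the uptake of glucose transporters from the cell surface, and its transcription follows glucose through the factors MondoA (gene MLXIP) and MLX.

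Some measures of RNA quality and identity moved with the groups. The treated OPM1 arrays had an upper quartile of signal of 77.5 and 78.7, and the other 6 arrays of 101 to 115. Bacterial RNA with a poly-A tail is commonly added to a sample as a control, and the geometric mean of its 4 probe sets was 19.7 to 25.7 on the MM1S arrays, 299.7 and 448 for untreated OPM1 and 1862 and 1349 for treated OPM1. OPM1 control 1 had the highest ratio of 3' to 5' signal, at 2.26 for GAPDH (0.963 to 1.06 on the others) and 5.80 for ACTB (1.78 to 2.62). The summed signal of 7 plasma cell markers was 21293 to 23084 in MM1S controls, 13862 to 14959 in treated MM1S, 2864 to 3114 in OPM1 controls and 870 to 893 in treated OPM1 arrays. SDC1, a defining marker, was at 6.6 and 12.9 on the OPM1 controls. Of the 7, only CD38 was higher on the OPM1 controls (400.1 and 578.1) than on the MM1S controls (61.1 and 47.3). The sum of 5 B-cell markers was 204 to 270, 210 to 215, 9021 to 10299 and 4248 to 5244 in the same order of groups. Of these 5, CD79A was not lower in treated OPM1, with a mean of 3730 against 3279 in the controls. The others fell there, PAX5 from 3219 to 50.9. Because of the SDC1 signal the cells are called OPM1-labelled. Sums of 3 T-cell markers (36 to 95) and 3 myeloid markers (36 to 66, but 107 and 165 with CD14 at 74.4 and 122.8 in treated OPM1) were low. The part of these measures in the results below was not tested, and in bulk RNA fewer cells of a kind and less RNA per cell cannot be told apart.

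After Zalypsis, ARRDC3, ARRDC4, TXNIP and, narrowly in MM1S, ARRDC2 were higher on both treated arrays than on both controls in each line. How many of all genes separated in this way was not counted, so it cannot be said whether this was unusual. By limma, 16.4% of all tested genes were called higher in MM1S and 25.4% in OPM1-labelled cells. The differences of ARRDC3, ARRDC4 and TXNIP were larger in OPM1-labelled cells, where scaling by poly-A controls turned TXNIP to -0.67. ARRDC2 was higher by 0.29 ± 0.15 and 0.35 ± 0.15 in MM1S and OPM1-labelled cells (log2, with -1.51 in the latter under the poly-A scaling). On its brightest probe set, but not on a dim second set, ARRDC1 was lower on both treated OPM1 arrays. In OPM1-labelled cells the log2 difference was 3.34 ± 0.15 for ARRDC3, 2.13 ± 0.14 for ARRDC4 and 1.37 ± 0.18 for TXNIP (SE, on the scale of log2 of signal plus 32). With the poly-A scaling those of ARRDC4 and ARRDC3 shrank to 0.21 and 1.65. That scaling moved the median of all tested genes in OPM1-labelled cells from -0.07 to -1.70, and quantile normalization moved it to 0.16.

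**Figure D1:**
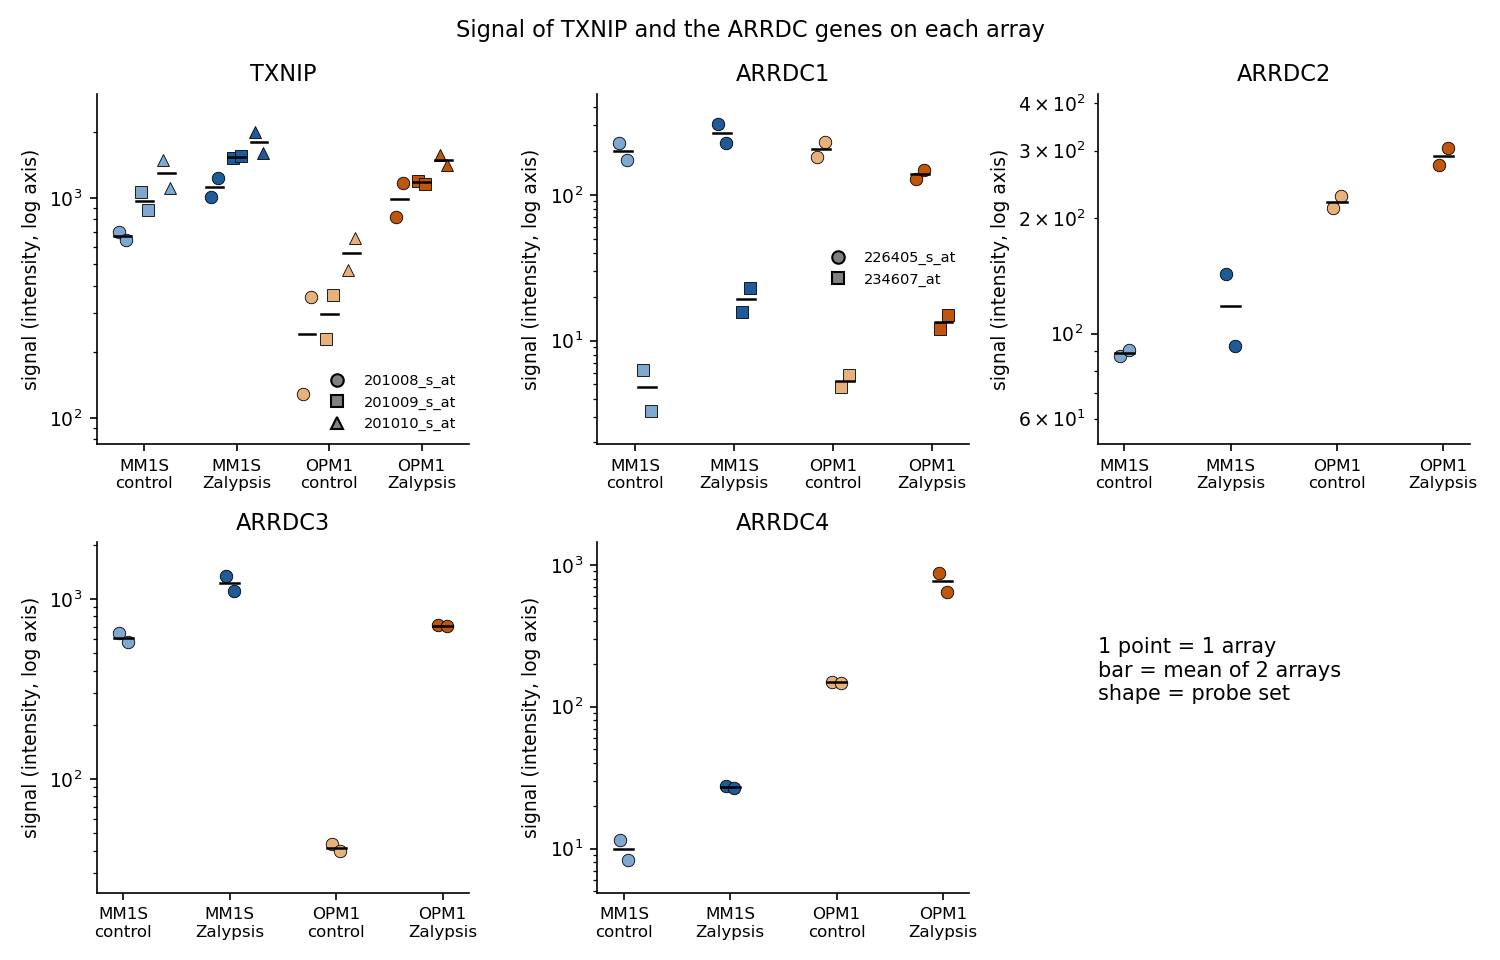
Signal (intensity, log axis) of every probe set of the 5 genes on each of the 8 arrays; 1 point is 1 array, a bar is the mean of 2 arrays and the shape marks the probe set. ARRDC3 lies at 39.6 and 43.4 in OPM1 controls and at 578 or above on all other arrays, and ARRDC4 lies below 28 on all MM1S arrays.

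TXNIP, the thioredoxin-binding member, was read by 3 probe sets. On the brightest, its signal was 1493 and 1108 on the MM1S controls, 2009 and 1610 on the treated MM1S arrays, 471 and 657 on the untreated OPM1 pair, and 1577 and 1414 on the treated OPM1 pair. The treated arrays lay above the controls in both lines, and the OPM1 controls were the lowest pair of all. The means ± SD (n = 2) were 1300 ± 272, 1809 ± 282, 564 ± 132 and 1495 ± 115 in that order. The log2 difference was 0.47 ± 0.18 in MM1S and 1.37 ± 0.18 in OPM1-labelled cells, and 0.25 and -0.67 with the poly-A scaling.

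On a second set the TXNIP signal was 1066 and 880 on the MM1S controls, 1527 and 1559 on the treated MM1S arrays, 229 and 361 on the untreated OPM1 pair and 1203 and 1157 on the treated OPM1 pair. On the third it was 698 and 644, 1015 and 1236, 129 and 355, and 824 and 1168 in the same order. Both sets gave the order of the brightest one, with log2 differences of 0.65 ± 0.18 and 0.71 ± 0.30 in MM1S and 1.92 ± 0.18 and 2.02 ± 0.30 in OPM1-labelled cells. OPM1 control 1, the array with the high ratio of 3' to 5' signal, was lower than OPM1 control 2 on all 3 sets, and without it the difference on the brightest set was 1.15. All 3 TXNIP probe sets are of the kind that can read more than 1 transcript, so no value is left when that kind is dropped.

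The known switch for glucose in the TXNIP promoter is the carbohydrate response element, a pair of E-box-like half-sites. The sequence is shown because TXNIP and ARRDC4 are the family's known targets of MondoA. It covers the 250 bases before the first annotated start of TXNIP in GRCh38.p14, chr1:145996580-145996829 on the minus strand, 5' to 3', from RefSeq. Capitals mark, from left to right, a reversed CCAAT box at -140, a FOXO site (GTAAACA) at -124, a CCAAT box at -105, the paired half-sites at -88 and 2 overlapping TATA matches at -29 and -27.
TXNIP: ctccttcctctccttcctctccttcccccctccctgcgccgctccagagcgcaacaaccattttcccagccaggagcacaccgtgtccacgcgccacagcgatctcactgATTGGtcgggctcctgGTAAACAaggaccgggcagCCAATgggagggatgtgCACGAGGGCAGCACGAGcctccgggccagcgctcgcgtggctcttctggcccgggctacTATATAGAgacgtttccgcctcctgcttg

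The motifs were searched on both strands of windows from 250 bases before to 50 after each annotated start, and positions count from the start site. The half-sites were searched as CACGNG, any 5 bases and CACGNG, written with the known element of TXNIP in view, so its match there is no finding. It was present in 20 of 35116 windows (0.057%) of all genes. CCAAT was in 34.6% of windows, GTAAACA in 3.42%, TATANA in 19.0%, the E-box CACGTG in 7.26%, the AP-1 motif TGANTCA in 7.71%, the GC box GGGCGG in 45.0% and the cyclic AMP motif TGACGTCA in 1.85%. A match is a description of the letters only. The E-box CACGTG is itself a form of the half-site CACGNG. A window at a second annotated start of TXNIP held none of these motifs.

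ARRDC4, the member closest to TXNIP in sequence and also driven by glucose, had the largest contrast between the untreated lines toward OPM1-labelled cells. Its signal was 11.5 and 8.3 on the MM1S controls, 27.6 and 26.6 on the treated MM1S arrays, 148.6 and 148.0 on the untreated OPM1 pair, and 883 and 646 on the treated OPM1 pair. No 2 groups overlapped. The MM1S values lay between the 21.7th and 48.9th percentile of the signals of an array, near background, so ARRDC4 passed the filter on low signal through the OPM1 arrays. The mean went from 148 ± 0.474 to 764 ± 167 (SD, n = 2) in OPM1-labelled cells, a signal ratio of 5.16 and a log2 difference of 2.13 ± 0.14 (0.21 with the poly-A scaling). In MM1S the signal ratio was 2.73 and the log2 difference 0.50 ± 0.14, and it ranged from 0.17 to 0.98 with the pseudocount, the number added before taking logs.

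The 250 bases before the start of ARRDC4, chr15:97960453-97960702 on the plus strand of GRCh38.p14 (RefSeq), are shown for comparison with TXNIP. Capitals mark an E-box (CACGTG) at -210, a reversed CCAAT box at -187, a CCAAT box, an AP-1 motif (TGACTCA) at -119 and a further CCAAT box at -67. The paired half-sites in the form searched were not in this window.
ARRDC4: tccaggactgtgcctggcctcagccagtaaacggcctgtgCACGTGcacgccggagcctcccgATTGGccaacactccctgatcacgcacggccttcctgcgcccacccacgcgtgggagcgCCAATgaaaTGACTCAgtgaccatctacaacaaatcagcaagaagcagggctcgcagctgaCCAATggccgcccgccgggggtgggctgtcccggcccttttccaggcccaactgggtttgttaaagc

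ARRDC3, which brings NEDD4-family ligases to proteins of the cell surface, an integrin among them, had the largest difference of the 5 after Zalypsis in OPM1-labelled cells. Its signal was 644 and 578 on the MM1S controls, 1339 and 1106 on the treated MM1S arrays, 43.4 and 39.6 on the untreated OPM1 pair, and 719 and 705 on the treated OPM1 pair. The OPM1 controls were far below all other arrays, and treated OPM1-labelled cells came up to just above the level of untreated MM1S. The means ± SD (n = 2) were 611 ± 46.6, 1223 ± 164, 41.5 ± 2.66 and 712 ± 9.76. The signal ratio of treated to control was 17.2 in OPM1-labelled cells and 2.00 in MM1S, and the log2 differences were 3.34 ± 0.15 and 0.96 ± 0.15, or 1.65 and 0.74 with the poly-A scaling. ARRDC3 was higher in both lines under every alternative run, from 1.65 to 3.86 in OPM1-labelled cells.

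RefSeq lists 2 starts of ARRDC3, and their upstream 250 bases are shown because its single probe set cannot say from which start the RNA came. The first is chr5:91383318-91383567 and the second chr5:91380098-91380347, both on the minus strand of GRCh38.p14. Capitals mark a CCAAT box at -241 in the first, and a reversed TATA match at -160 and a reversed FOXO site at -29 in the second.
ARRDC3, first start: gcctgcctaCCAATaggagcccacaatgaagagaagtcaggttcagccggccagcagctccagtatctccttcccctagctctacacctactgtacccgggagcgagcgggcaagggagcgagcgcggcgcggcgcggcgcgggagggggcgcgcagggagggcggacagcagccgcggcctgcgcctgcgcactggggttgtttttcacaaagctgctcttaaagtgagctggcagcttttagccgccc
ARRDC3, second start: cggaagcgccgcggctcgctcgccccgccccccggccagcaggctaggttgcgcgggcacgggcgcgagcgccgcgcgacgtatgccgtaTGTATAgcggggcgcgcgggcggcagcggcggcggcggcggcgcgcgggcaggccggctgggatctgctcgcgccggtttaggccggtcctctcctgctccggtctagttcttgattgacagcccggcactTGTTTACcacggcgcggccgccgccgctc

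**Figure D2:**
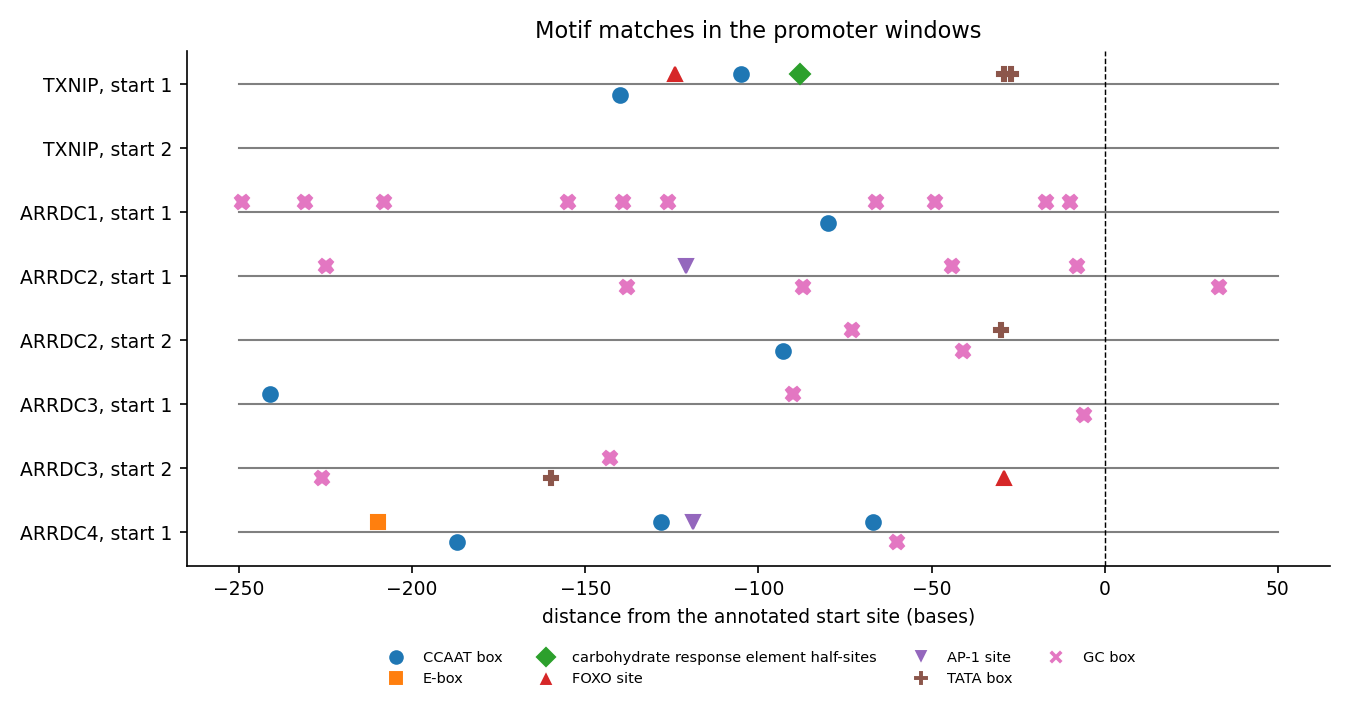
First base of each motif match by its distance in bases from the annotated start site, for the 8 promoter windows of the 5 genes; marks above a line are on the gene's strand and marks below it on the other. The first TXNIP window holds the paired half-sites at -88, and the ARRDC1 window holds 10 GC boxes.

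FOXO matches were present in a window of TXNIP and of ARRDC3, and AP-1 matches in a window of ARRDC2 (at -121) and of ARRDC4. At least 1 window of every member held CCAAT on either strand. The ARRDC1 window was the richest in G and C (81.3%) and held 10 GC boxes, against 0 in the first TXNIP window (60.3% G and C). These counts describe 8 windows of 5 genes.

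ARRDC2, a less studied member, had signals of 87.4 and 90.6 on the MM1S controls, 143.0 and 92.9 on the treated MM1S arrays, 213 and 228 on the untreated OPM1 pair, and 276 and 306 on the treated OPM1 pair. The treated arrays lay above the controls in both lines, in MM1S only narrowly for Zalypsis 2. The lines differed more than the treatment did, as all OPM1 arrays were above all MM1S arrays. The log2 difference was 0.29 ± 0.15 in MM1S and 0.35 ± 0.15 in OPM1-labelled cells, turning to -1.51 in the latter with the poly-A scaling. After quantile normalization it was 0.39 and 0.78.

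ARRDC1, which recruits the ESCRT protein TSG101 to bud vesicles from the cell surface, had signals of 227 and 173 on the MM1S controls, 304 and 225 on the treated MM1S arrays, 183 and 232 on the untreated OPM1 pair, and 129 and 147 on the treated OPM1 pair. Treated and control arrays overlapped in MM1S, whereas in OPM1-labelled cells both treated arrays were below both controls. The log2 difference was 0.35 ± 0.16 in MM1S and -0.48 ± 0.16 in OPM1-labelled cells. After quantile normalization it was -0.02 in OPM1-labelled cells, and with the poly-A scaling -2.22, so that its size depends on the normalization. A second ARRDC1 probe set was at 22.8 or less on all arrays and below the floor for a fit (20.0 in mean signal).

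**Figure D3:**
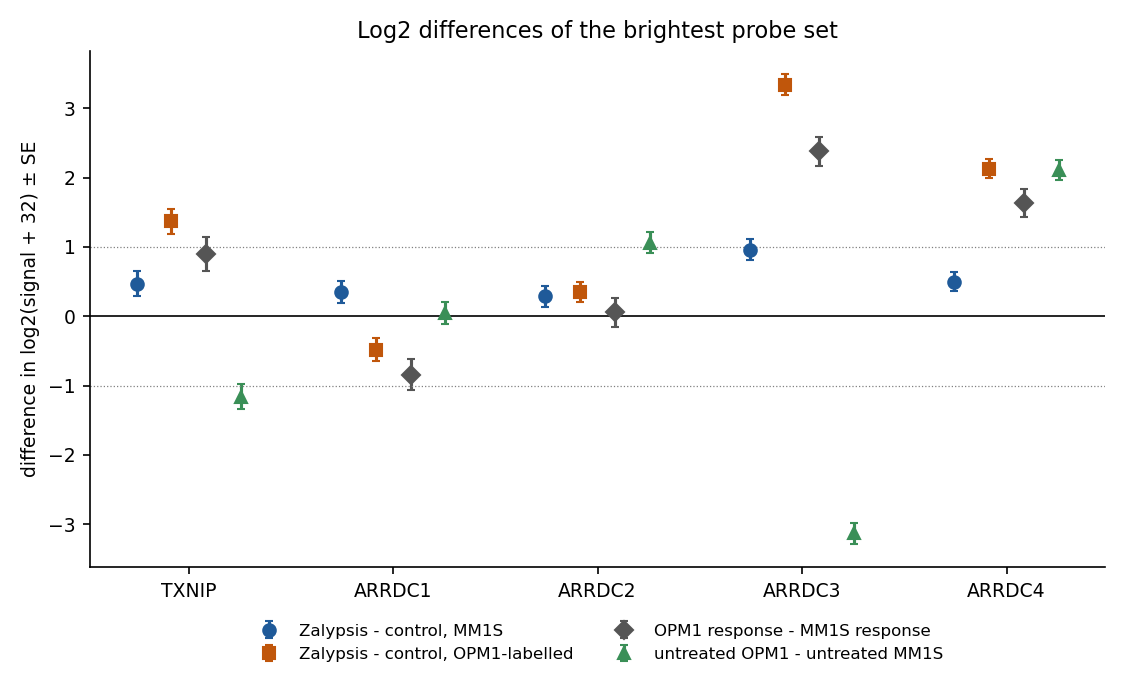
Difference in log2(signal + 32) with its standard error for the brightest probe set of each gene, in 4 comparisons; dotted lines mark a 2-fold difference on this scale. On it ARRDC3, ARRDC4 and TXNIP are over 2-fold higher after Zalypsis in OPM1-labelled cells (3.34, 2.13 and 1.37) and none is in MM1S. In signal ARRDC4 was 2.73 times as high in treated MM1S, near background. Under the poly-A scaling ARRDC4 was at 0.21 and TXNIP at -0.67 in OPM1-labelled cells.

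The series' design text counts a difference over 2-fold as a change. By that rule, on the log2 scale used here, 3 of the 5 members were higher in OPM1-labelled cells and 0 in MM1S, beside 7.59% and 1.63% of the 11865 genes tested. The count depends on the scale. In signal, ARRDC4 (near background) and ARRDC3 were 2.73 and 2.00 times as high in treated MM1S, and quantile normalization put ARRDC3 at 1.08 there. With the poly-A scaling ARRDC3 (1.65) stayed over 2-fold in OPM1-labelled cells, but ARRDC4 (0.21) and TXNIP (-0.67) did not. By limma with an adjusted p under 0.05, 3 members (TXNIP, ARRDC3 and ARRDC4) were called higher and 0 lower in MM1S, where 16.4% of all genes were called higher and 21.1% lower. In OPM1-labelled cells 4 were called higher and ARRDC1 lower, where 25.4% were called higher and 38.5% lower. With the poly-A scaling 0 members were called in MM1S, and 1 was called higher and 3 lower in OPM1-labelled cells. Quantile normalization called 5 higher in MM1S, and 4 higher and 0 lower in OPM1-labelled cells. With the mean of probe sets 4 were called higher in MM1S, and 3 higher and 0 lower in OPM1-labelled cells. These comparisons took part in the choice of the family, so the counts are read no further. The median log2 difference of the 5 members was 0.47 in MM1S and 1.37 in OPM1-labelled cells, and that of all genes tested 0.02 and -0.07.

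Single arrays decided some of those calls. TXNIP in MM1S was not called without MM1S control 2 (log2 0.26) or MM1S Zalypsis 1 (0.32), nor, at the same difference, without OPM1 Zalypsis 1 or OPM1 Zalypsis 2. ARRDC4 in MM1S was not called without MM1S control 2 (0.44). ARRDC1 in MM1S was called without MM1S control 1 (0.52) or MM1S Zalypsis 2 (0.55), but was at 0.18 without MM1S control 2 and at 0.16 without MM1S Zalypsis 1. ARRDC2 in MM1S was called without MM1S Zalypsis 2 (0.53) and was at 0.05 without MM1S Zalypsis 1. In OPM1-labelled cells ARRDC1 lost its call without OPM1 control 2 (-0.34) or OPM1 Zalypsis 1 (-0.41), and ARRDC2 without OPM1 control 1 (0.31), OPM1 Zalypsis 1 (0.42), OPM1 Zalypsis 2 (0.29) or either MM1S control (0.35). With the replicate number as a block, ARRDC1 was called in MM1S as well.

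**Figure D4:**
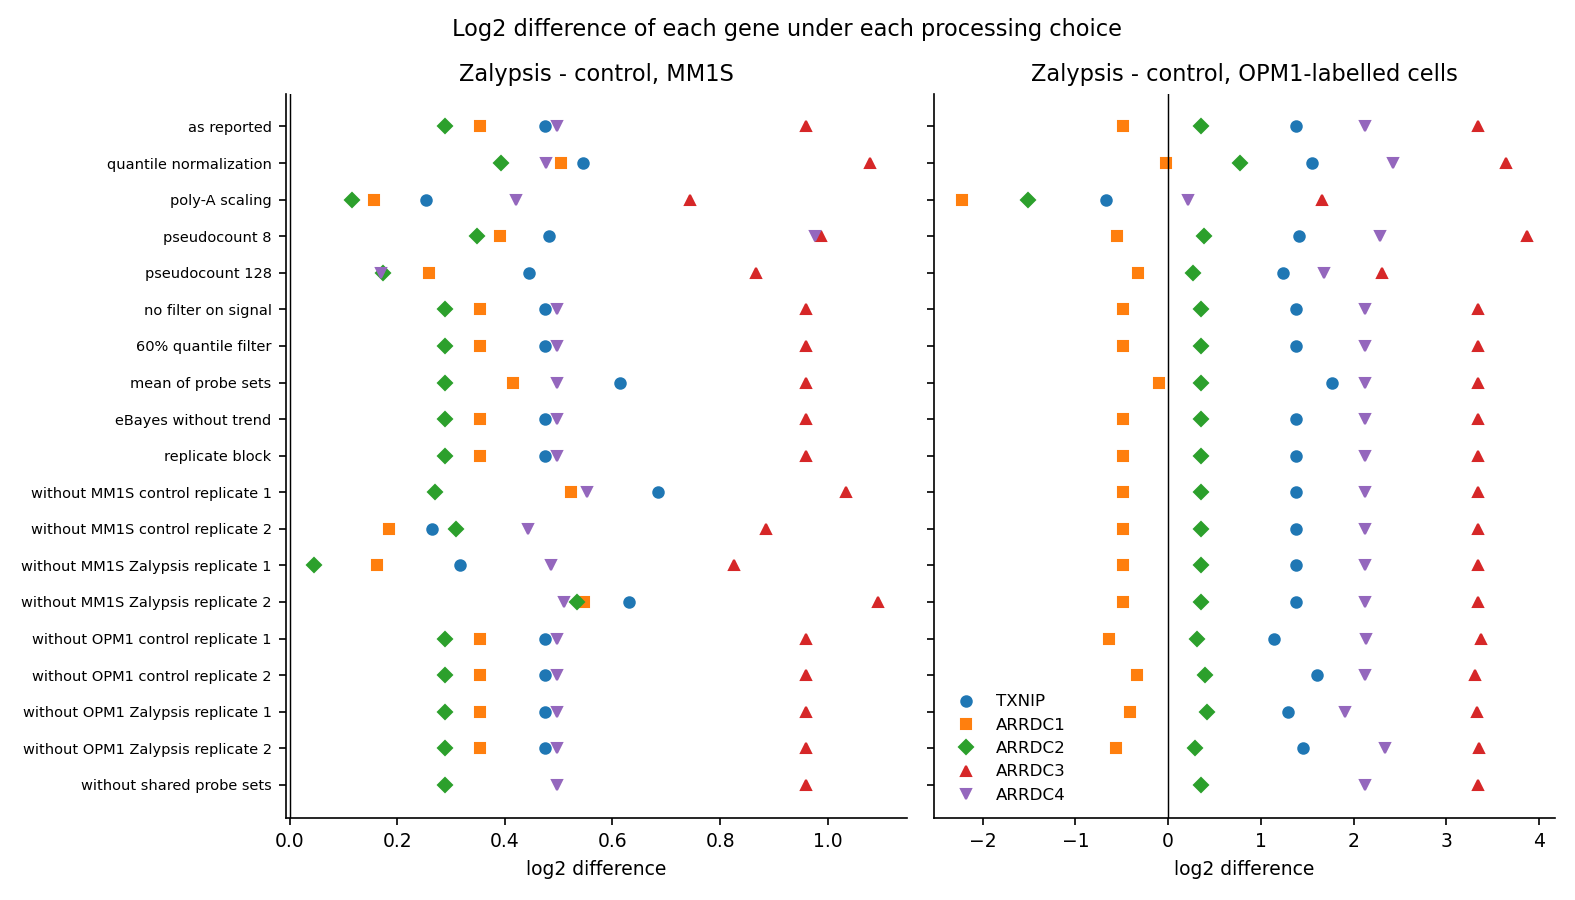
Log2 difference of each gene between Zalypsis and control under every processing choice, on the x axis, for MM1S (left) and OPM1-labelled cells (right). The panels have different x scales. A choice with no point left the gene without a probe set (TXNIP) or with one too dim to be tested (ARRDC1). In OPM1-labelled cells only the poly-A scaling turns TXNIP (-0.67) and ARRDC2 (-1.51) below 0, while ARRDC3 stays above 1.65 in all of them.

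Between the untreated lines ARRDC3 and ARRDC4 differed in opposite directions. The log2 difference of OPM1 minus MM1S controls was -3.13 ± 0.15 for ARRDC3, -1.16 ± 0.18 for TXNIP, 0.05 ± 0.16 for ARRDC1, 1.06 ± 0.15 for ARRDC2 and 2.11 ± 0.14 for ARRDC4. In signal, ARRDC3 was 14.7 times as high in MM1S and ARRDC4 14.9 times as high in OPM1-labelled cells, the latter against a near-background level. With the pseudocount the log2 difference of ARRDC4 ran from 1.0 to 3.13, and that of ARRDC3 from -2.12 to -3.64. The calls were 2 higher and 2 lower, with 28.6% and 35.2% of all genes called higher and lower. They too are read no further, as the family was chosen on these arrays. These differences use the control arrays that the responses use as well.

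The responses of the lines differed by 2.38 ± 0.21 for ARRDC3, 1.63 ± 0.20 for ARRDC4, 0.90 ± 0.25 for TXNIP, 0.06 ± 0.21 for ARRDC2 and -0.84 ± 0.23 for ARRDC1 (log2, OPM1-labelled minus MM1S). With the poly-A scaling the differences of TXNIP and ARRDC4 turned to -0.92 and -0.21. Of the members, 3 were called higher and 1 lower, where 15.3% of all genes were called higher and 31.2% lower. The family was chosen on these arrays, so this count is read no further. ARRDC4 was near background in MM1S, and with a lower or higher pseudocount its difference was 1.31 or 1.51. Between the treated lines the log2 difference was -0.26 ± 0.18 for TXNIP and -0.75 ± 0.15 for ARRDC3, smaller than between the controls, and 3.74 ± 0.14 for ARRDC4, larger than between them. It was 1.13 ± 0.15 for ARRDC2 and -0.79 ± 0.16 for ARRDC1.

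The members' patterns over the 8 arrays were compared by the root mean square difference of their log2 values, each gene centred on its own mean. The closest pair was TXNIP and ARRDC1 (0.69 log2 units) and the farthest ARRDC3 and ARRDC4 (2.47). This measure also depends on the size of the differences, so a small value does not mean a shared direction. After Zalypsis in OPM1-labelled cells TXNIP was at 1.37 and ARRDC1 at -0.48, while ARRDC3, at 0.95 from TXNIP, went the same way as TXNIP (3.34). Among all tested genes, CDC42SE1 (0.098), TRIR (0.104) and HINT2 (0.108) were nearest to TXNIP. For ARRDC3 they were C12orf57 (0.326), the stress-induced factor ATF3 (0.343) and GADD45B (0.497), a stress-induced gene. RRAGA (0.245), KBTBD6 (0.246) and the interferon-induced IFIT2 (0.254) were nearest to ARRDC4. For ARRDC2 they were ABHD10 (0.111), PLPP6 (0.115) and SIGIRR (0.115), and for ARRDC1 SAMD1 (0.095), POGK (0.098) and the replication gene MCM10 (0.103). Likeness over 8 arrays in 4 groups is a description of these arrays.

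The 5 genes are short. Their spans in RefSeq run from 4.14 kb for TXNIP to 14.7 kb for ARRDC3, against a median of 28.3 kb for the 11855 tested genes with a span. Of these, 91.0% were longer than TXNIP and 68.4% longer than ARRDC3.

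Of 82 genes linked to the alpha-arrestins by function, 62 were tested, and most of those called after Zalypsis were lower. These lists were set down from textbook roles with earlier results of the arrays known, not for how each gene moved. In MM1S 6 of the 62 rose (9.68%, against 16.4% of all genes) and 15 fell (24.2%, against 21.1%), with a median log2 difference of -0.12. With the poly-A scaling 2 rose and 14 fell, and 2 rose and 15 fell without MM1S Zalypsis 1. In OPM1-labelled cells 11 rose (17.7%, against 25.4%) and 39 fell (62.9%, against 38.5%), with a median of -0.66. After quantile normalization 19 of 61 rose and 31 fell there, and with the poly-A scaling 0 of 62 rose and 59 fell. Without OPM1 control 1, 6 rose and 39 fell. The responses differed in 35 of the 62, with 6 higher in OPM1-labelled cells (9.68%, against 15.3% of all genes) and 29 lower (46.8%, against 31.2%). After quantile normalization 10 were higher and 24 lower, and with the poly-A scaling 0 and 57. Between the untreated lines 21 were higher in OPM1-labelled cells (33.9%, against 28.6% of all genes) and 28 lower (45.2%, against 35.2%). With the mean of each gene's probe sets 13 were higher and 29 lower.

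**Figure D5:**
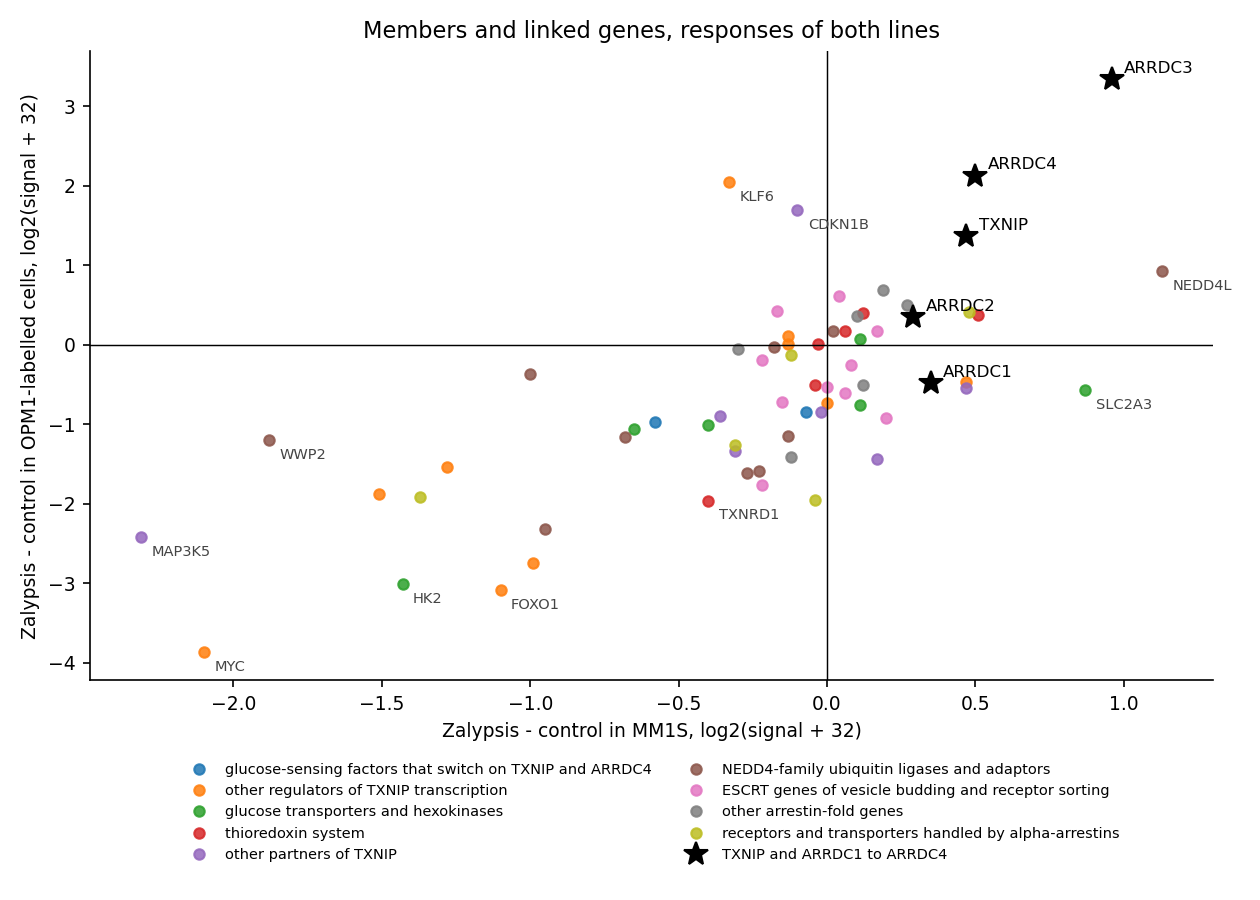
Log2 difference between Zalypsis and control in MM1S (x axis) and OPM1-labelled cells (y axis) for the 62 tested linked genes, coloured by list, and for the 5 members (stars). ARRDC3 (0.96 and 3.34), ARRDC4 and TXNIP lie to the upper right, while MYC, MAP3K5, HK2 and FOXO1 lie to the lower left; with the poly-A scaling TXNIP was at -0.67 in OPM1-labelled cells.

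Of the factors known to switch on TXNIP and ARRDC4, 2 were tested, and 1 fell in MM1S and 2 in OPM1-labelled cells. MLXIP, which encodes MondoA, fell from 139 ± 4.27 to 82.3 ± 3.07 in MM1S (log2 -0.58 ± 0.12, adjusted p = 6.8e-04). In OPM1-labelled cells it fell from 247 ± 15.5 to 110 ± 0.665 (-0.97 ± 0.12, adjusted p = 4.3e-07). Its partner MLX fell in OPM1-labelled cells (-0.84), a call that was lost with the mean of its probe sets (-0.26), and was at -0.07 in MM1S. MLXIPL was too dim to be tested.

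Of 10 other regulators of TXNIP transcription, 1 rose and 5 fell in MM1S, and 1 rose and 7 fell in OPM1-labelled cells. MYC, which competes with MondoA for sites, fell in both lines (log2 -2.10 and -3.86). The forkhead factors FOXO1 (-1.10 and -3.08) and FOXO3 (-1.28 and -1.53) and the glucocorticoid receptor NR3C1 (-1.51 and -1.88) fell in both as well. So did NFYC (-0.99 and -2.74), a subunit of the factor that binds CCAAT, but its brightest probe set of the unshared kind was at 0.13 and 0.21. The single rises were NFYB in MM1S (0.47) and KLF6 in OPM1-labelled cells (2.05, with its probe sets above the floor from -0.04 to 2.17), named after their values were seen.

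Of 6 glucose transporter and hexokinase genes, 1 rose and 2 fell in MM1S, and 0 rose and 5 fell in OPM1-labelled cells. HK2, which traps glucose in the cell, fell from 456 ± 92.6 to 150 ± 43.7 in MM1S (log2 -1.43 ± 0.19, adjusted p = 2.5e-06). In OPM1-labelled cells it fell from 1630 ± 416 to 171 ± 1.09 (-3.01 ± 0.19, adjusted p = 5.3e-12). The HK2 probe sets above the floor reached up to -0.08 in MM1S and -0.37 in OPM1-labelled cells. HK1 fell in both (-0.65 and -1.06). The transporter SLC2A3 rose in MM1S (0.87), whereas it fell in OPM1-labelled cells (-0.57, with its probe sets above the floor reaching up to 0.06). SLC2A1, whose protein TXNIP removes from the surface, fell in OPM1-labelled cells (-1.01) and was at -0.40 in MM1S (adjusted p = 0.053).

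Of 6 genes of the thioredoxin system, 1 rose and 1 fell in MM1S, and 2 rose and 2 fell in OPM1-labelled cells. TXNRD1, which reduces thioredoxin, had a log2 difference of -1.96 ± 0.13 in OPM1-labelled cells (adjusted p = 2.4e-11). It fell by 0.40 in MM1S, where the call was lost without MM1S control 1 (-0.37), MM1S Zalypsis 1 (-0.45) or MM1S Zalypsis 2 (-0.35). TXN, thioredoxin itself, was at 0.12 in MM1S and called higher in OPM1-labelled cells (0.40), but not without OPM1 control 1 (0.17), its other probe set went the opposite way (-1.26), and the poly-A scaling turned it (-1.70). TXNDC17 rose in MM1S (0.51) and OPM1-labelled cells (0.37), the first lost without MM1S Zalypsis 1 (0.44), the second without OPM1 Zalypsis 1 (0.40) or OPM1 Zalypsis 2 (0.33) or shared probe sets (0.21) and turned by the poly-A scaling (-1.73). TXNL1 fell in OPM1-labelled cells (-0.50), but the mean of its probe sets was 0.25.

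Of 7 other partners of TXNIP, 1 rose and 1 fell in MM1S, and 1 rose and 6 fell in OPM1-labelled cells. MAP3K5, a stress kinase held in check by thioredoxin, fell in both lines, from 256 ± 4.84 to 25.8 ± 0.0141 in MM1S (log2 -2.31 ± 0.12) and from 183 ± 4.6 to 8.26 ± 0.820 in OPM1-labelled cells (-2.42 ± 0.12). CDKN1B, a cell cycle inhibitor whose protein TXNIP stabilises, rose in OPM1-labelled cells (1.7), although with the poly-A scaling it was at -0.02, and it was at -0.10 in MM1S. IL1B, an inflammasome product, fell in OPM1-labelled cells (-1.44). CASP1 rose in MM1S (0.47), not without MM1S control 2 (0.36) or MM1S Zalypsis 1 (0.35), while it fell in OPM1-labelled cells (-0.54), not without OPM1 Zalypsis 1 (-0.40), shared probe sets (0.16) or after quantile normalization (-0.14).

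Of 10 NEDD4-family ligase and adaptor genes, 1 rose and 4 fell in MM1S, and 1 rose and 7 fell in OPM1-labelled cells. WWP2 (log2 -1.88 and -1.20), WWP1 (-0.95 and -2.31) and NEDD4 (-1.0 and -0.37) fell in both. The call of NEDD4 in OPM1-labelled cells was lost without OPM1 control 2 (-0.24) or OPM1 Zalypsis 1 (-0.25). NEDD4L rose in both by its brightest probe set (1.13 and 0.93), while its sets above the floor reached down to -1.12 and -1.31. The mean of all 6 sets was at -0.23 and -0.52, and with the poly-A scaling the brightest set was at -0.78 in OPM1-labelled cells. SMURF2 (-1.58) and the adaptor NDFIP1 (-1.61) fell in OPM1-labelled cells. Other probe sets there reached 0.43 for NDFIP1 and 0.36 for WWP2.

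Of 10 ESCRT genes limma called 0 in MM1S, also at an unadjusted p under 0.05, and 2 rose and 5 fell in OPM1-labelled cells. TSG101, the partner of ARRDC1, fell there from 544 ± 39.5 to 317 ± 14.6 (log2 -0.72 ± 0.16, adjusted p = 4.2e-04), with STAM (-0.92) and VPS37B (-1.76). Of 6 other arrestin-fold genes limma called 0 in MM1S (1 at an unadjusted p under 0.05, lower), and 3 rose and 2 fell in OPM1-labelled cells. VPS26C (0.69, but -1.06 with the poly-A scaling) and VPS26A (-0.51, lost without OPM1 Zalypsis 1 at -0.41 and after quantile normalization at -0.16, and -0.10 as the mean of its probe sets), both of the sorting complexes retromer or retriever, were among them. ARRB1, a beta-arrestin, fell from 127 ± 106 to 21.0 ± 0.410, but its brightest probe set of the unshared kind was at 0.15.

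Of 5 tested receptors and transporters that alpha-arrestins act on, 1 rose and 1 fell in MM1S, and 1 rose and 3 fell in OPM1-labelled cells. INSR, the insulin receptor, fell in both (log2 -1.37 and -1.91), with its probe sets above the floor reaching up to 0.22 in OPM1-labelled cells. NOTCH1 fell in OPM1-labelled cells from 328 ± 40.8 to 61.3 ± 6.10 (-1.95 ± 0.14, limma adjusted p = 8.6e-11) and was at -0.04 in MM1S. The iron transporter SLC11A2 fell in OPM1-labelled cells too (-1.26, with its probe sets above the floor reaching up to 0.53). F2R, a thrombin receptor, was called higher in both (0.48 and 0.41), but not without MM1S control 1 (0.32) or MM1S Zalypsis 1 (0.25) in the first, nor without OPM1 control 1 (0.19) or OPM1 Zalypsis 2 (0.27) in the second, where the poly-A scaling gave -1.17, and neither call held without a filter on signal.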

How the data were processed

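Each of the 8 samples was hybridised to 1 HG-U133 Plus 2.0 array. The deposited values are probe set intensity values on a linear scale that the authors obtained with the dChip software, per the series' design text. Neither dChip's version nor its normalization is given in the sources used here. RNA (100 ng) was amplified in a 2-cycle synthesis, per the labels' protocols, while the design text names another labelling kit. Of 54675 probe sets, 41091 carried 1 gene symbol, 1801 several and 11721 none, and 62 were controls. Symbols were updated through gene identifiers in RefSeq (GRCh38.p14) for 41037.

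Values were turned into log2(value + 32), which understates changes of dim genes. The probe set with the highest mean stood for a gene. The 40% of 19775 genes with the lowest mean (signal below 27.3) were left out, and 11865 were tested with limma 3.58.1 in R 4.3.3 (lmFit, 4 group means, eBayes with a trend, 4 residual and 17.0 prior degrees of freedom). P-values were Benjamini-Hochberg adjusted per contrast and called under 0.05. Other probe sets of members take their log2 difference and SE from the same model over 24655 probe sets. The steps were tested on simulated data. The poly-A scaling divided each array by its control mean relative to the mean of its line.

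The members and lists were chosen with earlier results of these data known. Named were all members, up to 3 called genes per list and line with the largest difference, and the 3 tested genes nearest each member, by profiles centred on their own means. NFYB, KLF6 and the antisense genes fall outside that rule. All 5 members had promoter windows in RefSeq (8 in all). No protein sequence was used. With 8 arrays, their number limits the precision. Alternatives were another normalization, pseudocount, filter, probe set rule, eBayes without a trend, a replicate block and leaving out each array.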

Additional observations from a re-analysis of the deposited data

Results flagged for a closer look

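The test of the difference between the lines' responses (limma, adjusted p under 0.05) called 24 of the 35 linked genes that the rule names. That rule takes the called genes with the largest responses on these same arrays, so this count is read no further. Of all 62 tested linked genes the test called 35, and of all genes it called 15.3% higher and 31.2% lower. The cause was not tested. The response was lower in OPM1-labelled cells (log2, OPM1-labelled minus MM1S) for 21 of the 24. Among factors that act on TXNIP transcription these were MLX (-0.77), MYC (-1.76), FOXO1 (-1.97) and NFYC (-1.75), and among genes of glucose handling SLC2A1 (-0.61), SLC2A3 (-1.45) and HK2 (-1.58). Of the thioredoxin system and the partners of TXNIP they were TXNRD1 (-1.56), TXNL1 (-0.46), CASP1 (-1.0) and IL1B (-1.61). Of the ubiquitin ligases and adaptors they were WWP1 (-1.37), SMURF2 (-1.36) and NDFIP1 (-1.34), and of the ESCRT and arrestin-fold genes TSG101 (-0.57), STAM (-1.11), VPS37B (-1.54), ARRB1 (-1.29) and VPS26A (-0.63). The receptor NOTCH1 (-1.90) and the transporter SLC11A2 (-0.95) completed them. The response was higher in OPM1-labelled cells for CDKN1B (1.80), NEDD4 (0.63) and WWP2 (0.68), but the poly-A scaling lost these calls (0.31, 0.19 and -0.22). WWP2 was not called with a lower pseudocount either (0.38), and its mean signal went from 262 to 48.1 in MM1S and from 74.5 to 14.5 in OPM1-labelled cells. NEDD4 was at 13.1 and 22.0 on the OPM1 controls, near background. Outside the rule, KLF6 (2.39) and NFYB (-0.95) differed as well.

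Calls of this test were lost without single arrays for ARRB1 (-0.56 without OPM1 control 1), MLX (-0.56 without MM1S Zalypsis 1), NEDD4 (0.50 without OPM1 control 1 or OPM1 Zalypsis 2), WWP2 (0.52 without MM1S Zalypsis 2) and VPS26A (-0.53 without MM1S control 2, MM1S Zalypsis 1 or OPM1 Zalypsis 1). They were lost for SLC2A1 (-0.46 to -0.55, without MM1S control 2, MM1S Zalypsis 1, OPM1 control 2 or OPM1 Zalypsis 1), TSG101 (-0.39 to -0.61, without these or OPM1 Zalypsis 2) and TXNL1 (-0.38 to -0.47, without MM1S control 2, MM1S Zalypsis 1, OPM1 Zalypsis 1 or OPM1 Zalypsis 2). The direction turned for ARRB1 with a lower pseudocount (0.43) or without shared probe sets (0.26), for NFYC without them (0.09) and for TXNL1 with the mean of its probe sets (0.17). The mean of probe sets also ended the calls of MLX (-0.26), SLC2A1 (-0.32) and VPS26A (-0.20). Quantile normalization ended those of SLC2A1 (-0.46), TSG101 (-0.24) and ARRB1 (-1.23), and testing without a filter ended the same 3 at their given values. A higher pseudocount ended that of TSG101 (-0.46).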

How the results depend on the processing

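The poly-A scaling changed most. It turned the log2 difference of TXNIP (-0.67) and ARRDC2 (-1.51) in OPM1-labelled cells and the difference in response of TXNIP (-0.92) and ARRDC4 (-0.21), and with it 57 of 62 linked genes differed in response, against 35. It is not given between the untreated lines, as it was set within each line. With it 0 of the 5 members were called in MM1S (limma); 1 was called there without MM1S control 2. The total counts of linked genes called, in both directions together, otherwise stayed within 1.5 times those given. Leaving out 1 array gave 17 to 23 in MM1S, 44 to 50 in OPM1-labelled cells, 29 to 35 for the difference and 40 to 48 between untreated lines. Same-numbered arrays of a line deviated together at r = 0.212 in MM1S and 0.209 in OPM1 across genes, but share only a number. A replicate block called 26, 50, 39 and 51 linked genes, against 21, 50, 35 and 49. TXNIP and ARRDC1 could not be fitted without shared probe sets.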

Other observations

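ARRDC1-AS1, an antisense gene beside ARRDC1 matched by its own gene identifier and named after its values were seen, rose in both lines. Its signal was 79.1 and 62.6 on the MM1S controls, 122.6 and 131.0 on the treated MM1S arrays, 63.3 and 74.1 on the untreated OPM1 pair and 149.6 and 150.2 on the treated OPM1 pair (log2 0.63 ± 0.13 and 0.85 ± 0.13). By limma it was called higher in both lines, as were 16.4% of all genes in MM1S and 25.4% in OPM1-labelled cells. Since it was picked by its values, it is only described. With the poly-A scaling it was not called in MM1S (log2 0.47) and was lower in OPM1-labelled cells (-0.74). ARRDC3-AS1 was dim, at 25.9 to 38.6 on all arrays, with log2 differences of 0.11 ± 0.14 and -0.08 ± 0.14.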
